A study of Mus musculus with 6 samples.

Results

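Cytosolic ribosomal proteins are the protein parts of the ribosomes that translate nuclear messenger RNAs. The family was taken by gene symbol from the deposited table of estimated counts: names of the form Rpl or Rps with a number, the stalk proteins Rplp0 to Rplp2 and Rpsa, without the S6 kinases (Rps6k genes), Rps27l and names that end in -ps and a number. This gave 91 rows of 25703, of which 90 passed the filter on low counts. They were 43 proteins of the large subunit, 31 of the small subunit, 3 stalk proteins, 13 paralogs or retrotransposed copies that carry a gene-like symbol, and Rps19bp1, which the naming pattern admits but which encodes a binding partner of Rps19 and not a ribosomal protein. The muscle paralog Rpl3l, at 0.0989 to 0.217 CPM (counts scaled to a common library size), was the row that did not pass.

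The libraries hold RNA of the proximal incisor at 6 weeks of age on the C57BL/6 strain. Control is the Arid1a fl/fl genotype (3 libraries), and Arid1a cKO is Gli1-CreER;Arid1a fl/fl (3 libraries). Both groups carry the floxed Arid1a allele, but the control genotype does not hold Gli1-CreER. Effects of the Gli1-CreER allele and of the loss of Arid1a therefore cannot be told apart here. The tamoxifen course, 1.5 mg per 10 g body weight on 3 days from 1 month of age, is stated in the same words for both groups. Gli1-CreER is active in cells that express Gli1, so the tissue can also hold cells in which the allele was not recombined, and a lower RNA level in a whole tissue cannot tell fewer cells of a type from less RNA per cell. The labels do not say which libraries are different animals, and p-values measure the spread between these libraries.

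Each ribosomal protein is made in step with its partners, because a subunit needs 1 copy of almost every one. Their messenger RNAs are short, abundant and begin with a tract of pyrimidines, the 5′ TOP element, through which growth signals by way of mTOR and Larp1 control their translation. In the growing incisor the proximal end holds stem cells and rapidly dividing transit-amplifying cells, which need ribosomes for each division. Mammalian genomes also hold many retrotransposed copies of these genes, so short reads from a ribosomal protein mRNA often fit several places.

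The library totals ranged from 27300932 to 37908478 counts, and CPM below are on library sizes scaled by TMM. Arid1a, the targeted gene, stood at 222, 249 and 223 CPM in control replicates 1 to 3 and at 136, 139 and 145 CPM in the Arid1a cKO, a fall of 0.72 on the log2 scale (SE 0.068, edgeR quasi-likelihood adjusted p = 0.0080). All 12 incisor genes checked were in the table, and their sum was 3206 to 8430 CPM in the controls and 5149 to 7007 CPM in the Arid1a cKO, most of it Dspp in all libraries but control replicate 2. Of the 12, 0 rose and 2 fell, beside 1.5% and 2.46% of all genes tested, and the list median was -0.20. Those that fell were Gli1 (log2 fold change -0.52, edgeR adjusted p = 0.0162) and Msx2 (-0.49, adjusted p = 0.0194). The Gli1 promoter drives the recombinase, which the control genotype lacks. The part of the Gli1-CreER allele in the Gli1 value was not tested. Xist was at 3894 CPM in control replicate 3 and 2807 CPM in Arid1a cKO replicate 1 and at 1.05 to 4.39 CPM in the other 4 libraries, where the Y-linked Ddx3y was at 66.2 to 93.8 CPM against 0.0365 and 0.0255 CPM in the former. Each group thus held RNA of more than 1 animal. Sums of 12 leukocyte genes (570 to 802 CPM in the controls, 707 to 1534 CPM in the Arid1a cKO) and of 5 haemoglobin and other erythroid genes (40.2 to 136 CPM, 56.4 to 342 CPM) were highest in Arid1a cKO replicate 1. Of the leukocyte genes, the T cell gene Cd3e and the B cell gene Cd79a were the 2 with a mean under 1 CPM.

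Sequences come first because they decide what a row of this table can show. Reads had 75 cycles, and a stretch of 75 bases of the main transcript of a member (GENCODE release M21, build GRCm38, the assembly that mm10 names) was found unaltered in a transcript of another gene for a median of 50.3% of the stretches of a member. For 5 members no stretch was shared. Of the 91 members, 84 had at least 1 near-identical row in the table (at least 90% identity over at least 70% of the coding sequence). Outside the family this gave 549 rows, of which 523 were annotated as pseudogenes. The sets below show 75 coding bases of 5 members beside 1 or 2 of their most abundant copies, 5′ to 3′ on the strand of each gene. Capitals mark the positions where any sequence of the set differs. Each window was the one that differed most from the copies shown, among coding windows within 1 exon that aligned without gaps. The differences shown need not be typical of the coding sequence.

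In Rpl30, the member with the smallest p-value, 65.1% of the stretches were shared. The bases at chr15:34442706-34442780 (minus strand, exonic) are set beside those of the pseudogenes Gm12191 at chr11:49678962-49679036 and Rpl30-ps9 at chrX:105278889-105278963, both on the minus strand, each with 1 difference.
Rpl30: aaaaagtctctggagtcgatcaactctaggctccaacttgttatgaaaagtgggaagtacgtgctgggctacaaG
Gm12191: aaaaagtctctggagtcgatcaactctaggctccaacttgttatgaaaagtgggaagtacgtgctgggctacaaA
Rpl30-ps9: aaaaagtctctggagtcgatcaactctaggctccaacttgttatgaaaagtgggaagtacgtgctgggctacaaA

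In Rpl24, 80.9% of the stretches were shared. Its bases at chr16:55971311-55971385 (plus strand, exonic) match Gm9385 at chr9:116040596-116040670 (minus strand) at every position and differ at 3 from Gm12254 at chr11:58508797-58508871 (minus strand).
Rpl24: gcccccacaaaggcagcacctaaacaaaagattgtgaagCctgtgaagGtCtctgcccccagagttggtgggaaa
Gm9385: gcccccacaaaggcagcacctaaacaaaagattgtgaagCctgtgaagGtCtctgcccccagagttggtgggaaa
Gm12254: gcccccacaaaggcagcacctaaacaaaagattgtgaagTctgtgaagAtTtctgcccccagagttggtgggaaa

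Rpl11 shared 61% of its stretches. The window at chr4:136052638-136052712 (minus strand, exonic) has 1 difference from Gm10288 at chr3:146839262-146839336 (minus strand), whose row held 347 to 419 CPM in the controls, where that of Rpl11 held 11.2 to 12.3 CPM.
Rpl11: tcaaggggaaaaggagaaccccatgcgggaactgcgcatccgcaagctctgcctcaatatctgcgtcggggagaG
Gm10288: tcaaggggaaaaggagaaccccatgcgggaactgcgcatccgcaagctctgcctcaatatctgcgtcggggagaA

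Rpl3 shared 83.2% of its stretches and Rps18 shared 77.8%. Rpl3 at chr15:80082508-80082582 (minus strand, exonic) has 1 difference from Rpl3-ps1 at chrX:13202575-13202649 (plus strand). Rps18 at chr17:33952233-33952307 (minus strand, exonic) has 2 differences from Gm10260 at chr13:97760218-97760292 (minus strand), a copy annotated as protein coding.
Rpl3: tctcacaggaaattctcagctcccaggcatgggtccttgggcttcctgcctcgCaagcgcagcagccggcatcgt
Rpl3-ps1: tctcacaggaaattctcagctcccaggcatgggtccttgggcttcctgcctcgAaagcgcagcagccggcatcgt
Rps18: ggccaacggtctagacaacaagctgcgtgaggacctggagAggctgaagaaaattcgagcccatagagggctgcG
Gm10260: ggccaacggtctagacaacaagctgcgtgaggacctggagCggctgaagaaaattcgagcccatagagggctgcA

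The 5′ TOP element is shown for 4 members picked from those whose annotated start holds it, 20 bases each with the tract in capitals. These are Rpl30 at chr15:34443203-34443222 (minus strand), Rps21 at chr2:180257377-180257396 (plus), Rpl37a at chr1:72711290-72711309 (plus) and Rpl32 at chr6:115808728-115808747 (minus). An annotated protein-coding transcript began with a C and at least 4 further pyrimidines (C or T, read on the transcript strand alone) in 29 of 233 transcripts of the members (12.4%), against 1261 of 58797 over all genes (2.14%). The annotated starts need not be those used in this tissue, so this share describes the annotation and not the mRNAs present here. At the annotated starts of Rpl24, Rpl26 and Rps19, not shown, no such tract was found.
Rpl30: CCTTTCTCgctccccggcca
Rps21: CCCTCCTgcccaatagtgct
Rpl37a: CTCTTCggacttgggcttgg
Rpl32: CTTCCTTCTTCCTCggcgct

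Of the 90 tested members 6 rose in the Arid1a cKO and 0 fell at an edgeR quasi-likelihood adjusted p under 0.05. Over all 19613 genes tested, 3.96% passed, 1.5% upwards and 2.46% downwards. The 6 were Rpl24, Rpl26, Rpl30, Rpl6l, Rps19 and Rps21, with rises of 1.32 to 1.54 times. DESeq2 called 26 members up and 1 down, and without control replicate 1, 2 or 3 the edgeR fit had 1, 3 or 1 rises, and without Arid1a cKO replicate 1, 2 or 3 it had 5, 1 or 0. Over all genes DESeq2 called 4.47% up and 6.01% down, and these 6 fits without 1 library called 0.273 to 0.971% up. The other 84 members did not pass, but 77 of the 90 log2 fold changes were above 0 (85.6%, against 50.8% of all genes). The median log2 fold change was 0.18 (quartiles 0.12 and 0.28), beside 0.0043 over all genes (quartiles -0.16 and 0.17). In 50 members every Arid1a cKO library lay above every control library, 55.6% of them, against 13.8% of all genes. In 2 members, Rpl11 and Rpl36a, the groups were separate in the other direction, against 15.3% of all genes. An unadjusted p under 0.05 was reached by 39 members with a positive log2 fold change, where the background was 10% of genes, and by 1, Rpl11, with a negative one, where it was 11.9%.

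**Figure D1:**
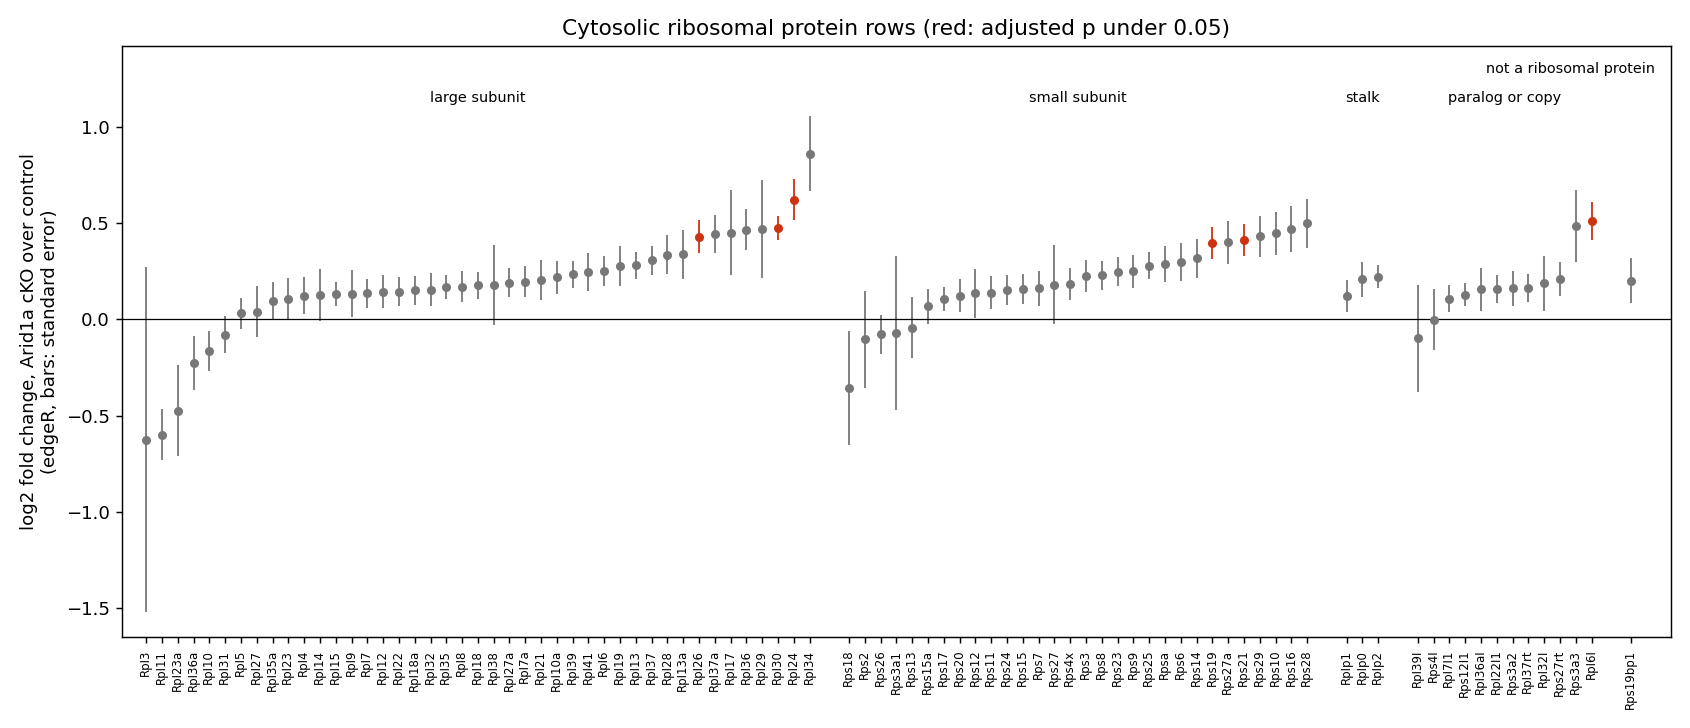
Log2 fold change of 89 of the 90 tested members (vertical axis, edgeR, Arid1a cKO over control), ordered by value within each role, with bars of 1 standard error and red for an adjusted p under 0.05. Most points of every role lie a little above 0, 6 are red, and Rpl3 has the widest bar.

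Among proteins of the large subunit 3 of 43 rose and 0 fell, beside 1.5% and 2.46% of all genes tested. The median log2 fold change of the 43 was 0.18. Rpl30, a small protein at the face where the subunits meet, was at 72.6, 82.0 and 81.8 CPM in control replicates 1 to 3 and at 109.8, 109.7 and 108.5 CPM in the Arid1a cKO. The Arid1a cKO libraries lay close together and all above the controls. The log2 fold change was 0.47 (SE 0.064, adjusted p = 0.0142, edgeR quasi-likelihood), and this call held in 5 of the 6 fits that left out 1 library. Rpl24, the gene mutated in the Belly spot and tail mouse, was at 17.5, 22.4 and 21.7 CPM against 33.9, 30.3 and 30.5 CPM. Its log2 fold change was 0.62 (SE 0.11, adjusted p = 0.0244), and the groups did not overlap. Rpl26, which also binds the Trp53 mRNA, was at 164, 183 and 168 CPM against 258, 215 and 221 CPM, a log2 fold change of 0.43 (SE 0.087, adjusted p = 0.0396). Its highest library was Arid1a cKO replicate 1. The Rpl24 row held just 6.02% of the sum with its near-identical rows in the controls and 8.27% in the Arid1a cKO. For Rpl30 these shares were 25.98 and 31.99%, and for Rpl26 36.97 and 43.32%. Each share was higher in the Arid1a cKO, so these rows alone do not give the level or change of the genes. The sums had log2 fold changes of 0.16 (Rpl24), 0.16 (Rpl30) and 0.20 (Rpl26), and none passed.

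The 3 large-subunit members nearest to these by p-value did not pass. Rpl11, which with Rpl5 and the 5S RNA binds Mdm2 and so links ribosome assembly to Trp53, was at 11.2, 12.3 and 12.1 CPM in the controls and 8.61, 8.36 and 6.43 CPM in the Arid1a cKO (log2 fold change -0.60, SE 0.13, edgeR adjusted p = 0.0509). It was the lone member with a negative value and an unadjusted p under 0.05. Rpl5, its partner, was at 18.3, 17.4 and 18.04 CPM against 16.9, 18.4 and 19.6 CPM, with overlapping groups. Rpl27, also near 0, was at 11.6, 9.21 and 12.5 CPM against 12.4, 11.02 and 10.9 CPM (log2 fold change 0.039). The rows of Rpl11, Rpl5 and Rpl27 held just 2.45, 1.90 and 5.28% of the control sums with their near-identical rows. Those sums had log2 fold changes of 0.17, 0.075 and 0.16, and none passed. Rpl37a was at 90.2, 99.4 and 98.3 CPM against 151, 120 and 120 CPM (log2 fold change 0.44, edgeR adjusted p = 0.0516). Rpl36 was at 44.1, 52.3 and 48.7 CPM against 76.5, 59.9 and 64.0 CPM (0.47, edgeR adjusted p = 0.0528). In both rows the groups were separate and Arid1a cKO replicate 1 was the highest.

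Of the small-subunit proteins 2 of 31 rose and 0 fell, beside 1.5% and 2.46% of all genes tested. The median log2 fold change of the 31 was 0.23. Rps21, a protein of the small subunit that is needed for late processing of its RNA, was at 100.1, 120.0 and 113.5 CPM in the controls and at 157.9, 143.5 and 142.4 CPM in the Arid1a cKO (log2 fold change 0.41, SE 0.081, edgeR adjusted p = 0.0372). Every Arid1a cKO library exceeded every control. Rps19, the gene most often mutated in Diamond-Blackfan anaemia, was at 196, 208 and 198 CPM against 295, 244 and 253 CPM (log2 fold change 0.40, SE 0.084, edgeR adjusted p = 0.0453). Neither of these calls, nor that of Rpl26, held in any of the 6 fits without 1 library, where their adjusted p lay between 0.0519 and 0.142.

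Rps29, Rps10 and Rps25 were the next small-subunit rows by p-value and did not pass. Rps29 was at 32.6, 39.3 and 34.8 CPM against 54.5, 46.3 and 43.0 CPM (log2 fold change 0.43, edgeR adjusted p = 0.0646). Rps10 was at 86.1, 104 and 105 CPM against 153, 122 and 127 CPM (0.45, adjusted p = 0.0683), and Rps25 at 124, 132 and 123 CPM against 165, 143 and 151 CPM (0.28, adjusted p = 0.0686). The groups were separate in all 3. Rps6, the substrate of the S6 kinases, was at 94.4, 98.4 and 85.7 CPM against 130, 102 and 111 CPM (log2 fold change 0.30, edgeR adjusted p = 0.127). Rpsa, also known as a precursor of a laminin receptor, was at 356, 361 and 356 CPM against 496, 404 and 408 CPM (0.28, adjusted p = 0.129). The X-linked Rps4x was at 750, 765 and 691 CPM against 885, 811 and 813 CPM (0.19, adjusted p = 0.244). In these 3 rows as well the groups were separate and none passed.

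The stalk recruits the elongation factors to the ribosome. Its 3 proteins gave log2 fold changes of 0.12 to 0.22 with 0 calls, beside 3.96% of all genes. Rplp0 was at 1129, 1042 and 1029 CPM against 1326, 1172 and 1196 CPM (log2 fold change 0.21, edgeR adjusted p = 0.232). Rplp1 was at 566, 541 and 512 CPM against 634, 568 and 559 CPM (0.12, adjusted p = 0.442), with overlap between the groups. Rplp2 was at 227, 218 and 224 CPM against 268, 252 and 260 CPM (0.22, adjusted p = 0.0846), with none.

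**Figure D2:**
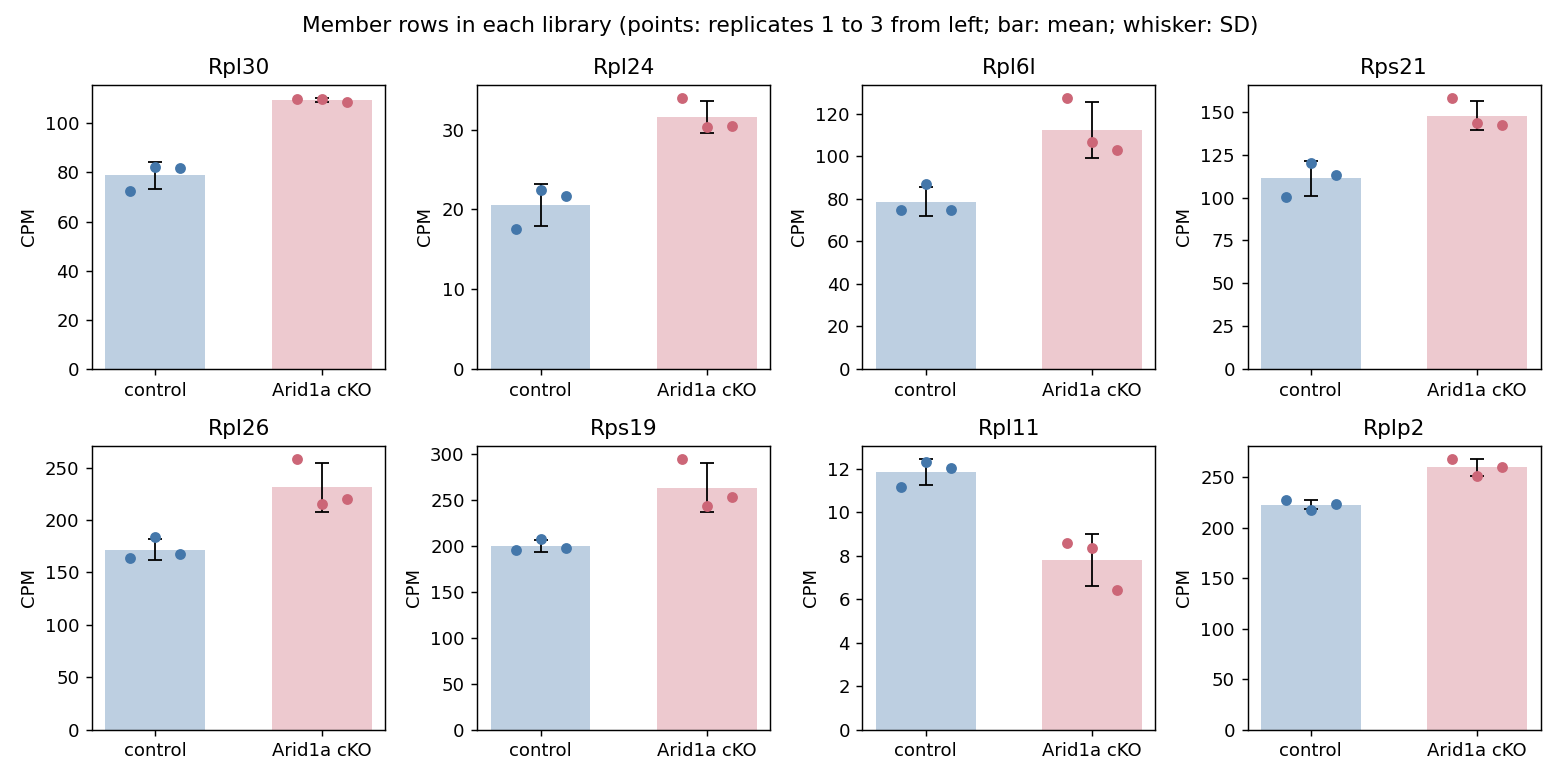
CPM (vertical axis, from 0) of the 6 members with an adjusted p under 0.05 and of Rpl11 and Rplp2, with 1 point a library, bars for the mean of 3 libraries and whiskers for the SD. The groups do not overlap in any of the 8 panels, and Rpl11 is the panel with lower values in the Arid1a cKO.

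Among the paralogs and copies 1 of 12 tested rose, beside 1.5% of all genes, with a median log2 fold change of 0.16. That row, Rpl6l, is annotated as a processed pseudogene of Rpl6 and was at 74.6, 86.8 and 74.6 CPM against 127, 107 and 103 CPM (log2 fold change 0.51, SE 0.099, edgeR adjusted p = 0.0347), without overlap. Its call held in 2 of 6 fits without 1 library, as did that of Rpl24. The pairs of a gene and its paralog gave these values. Rpl22 had 277 ± 11.1 CPM in the controls and 306 ± 19.6 CPM in the Arid1a cKO (SD, n = 3), and Rpl22l1 had 75.1 ± 4.73 and 83.6 ± 5.66 CPM. Rpl7 had 565 ± 28.5 and 620 ± 15.7 CPM, and Rpl7l1 had 85.7 ± 2.14 and 92.3 ± 7.20 CPM. Rpl39 had 172 ± 11.7 and 202 ± 9.17 CPM, while Rpl39l, known mainly from the testis, stood at 5.32 ± 1.47 and 4.98 ± 1.46 CPM. Rpl36a had 4.09 ± 0.112 and 3.49 ± 0.205 CPM, and Rpl36al 69.5 ± 8.70 and 77.4 ± 8.56 CPM. Just 1.47% of the control sum of Rpl36a and its near-identical rows lay on the Rpl36a row. That sum was 280 ± 25.9 CPM in the controls and 302 ± 13.3 CPM in the Arid1a cKO (log2 fold change 0.11). The 2 rows alone therefore do not rank the gene and its paralog. Rps4l had 22.8 ± 4.70 and 22.8 ± 3.01 CPM. None of these rows passed the test (edgeR adjusted p of 0.109 to 0.997), and in Rpl22l1, Rpl36al, Rpl7l1, Rpl39l and Rps4l the groups overlapped.

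The libraries did not contribute evenly. Arid1a cKO replicate 1 was the highest library in 69 of the 90 tested members, and the lowest was control replicate 3 in 39 and control replicate 1 in 27. Averaged over members, the log2 CPM centred on each member was -0.06, -0.06 and -0.14 in the controls and 0.20, 0.04 and 0.02 in the Arid1a cKO, so all 3 Arid1a cKO libraries lay above the controls. Counts on member rows made up 1.75, 1.79 and 1.69% of the control libraries (mean 1.74 ± 0.050, SD, n = 3) and 2.26, 1.89 and 1.95% of the Arid1a cKO libraries (2.03 ± 0.199), 1.17 times as much. Without Arid1a cKO replicate 1 the median log2 fold change was 0.14, 5 members rose and 1, Rps18, fell, beside 0.971% and 1.7% of all genes. Xist was high in the highest library and in the library that was most often lowest. With a term for high Xist 11 members rose and 1, Rpl11, fell, beside 2.32% and 4.17% of all genes. In the 4 libraries of low Xist the median was 0.12, with 1 member up (Rpl34) and 1 down (Rps18), beside 0.273% and 0.623%.

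**Figure D3:**
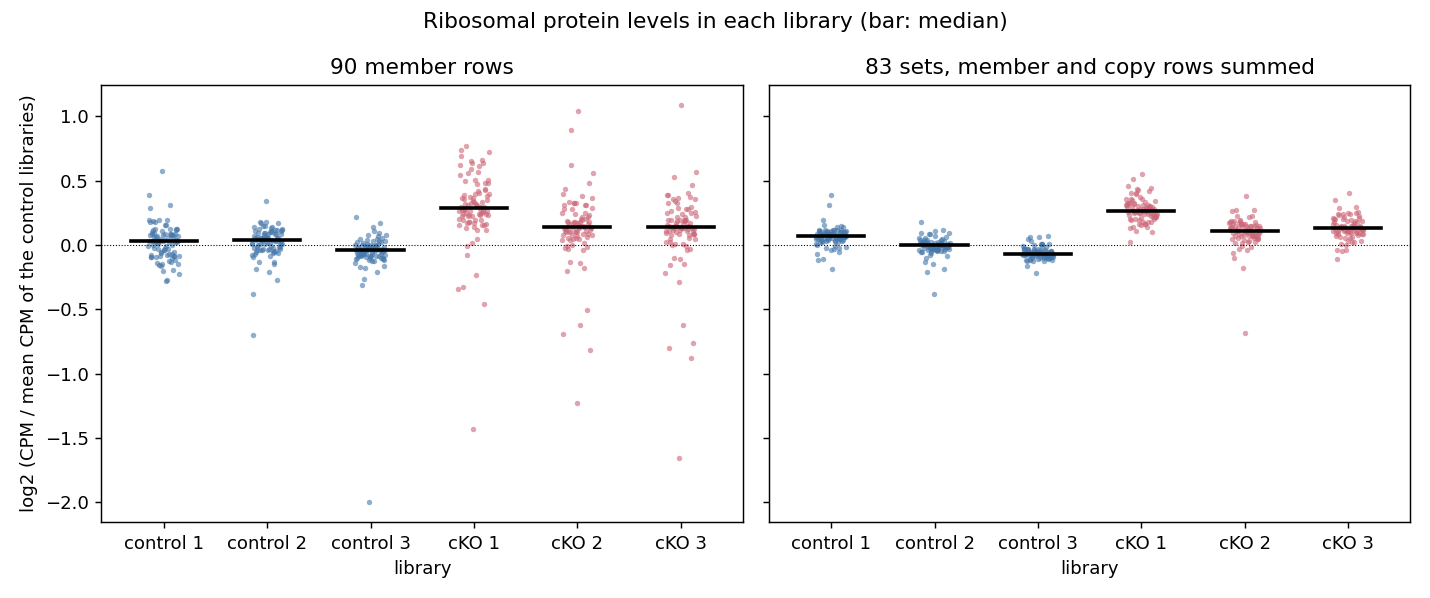
Log2 ratio of each library's CPM to the mean of the controls (vertical axis) for the 90 tested member rows on the left and for 83 sets of a member summed with its near-identical copies on the right, with a bar at the median of each of the 6 libraries. The Arid1a cKO bars lie above 0 in both panels, highest in replicate 1, and the points lie closer together after summing.

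Several rows swung between libraries far more than the family did. The highest library exceeded the lowest more than 2-fold in 6 tested members. The examples named here were picked after their values were seen. Rpl3, which reaches close to the peptidyl transferase centre, was at 109, 92.5 and 18.3 CPM in the controls and at 27.1, 91.8 and 23.2 CPM in the Arid1a cKO, so that each group held both high and low libraries. Rpl3-ps1, on the same libraries, was at 1000, 974 and 957 CPM against 1218, 1036 and 1139 CPM. So the pseudogene row held most of the counts of the pair in every library.

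Rps18 was at 310, 279 and 265 CPM in the controls and 337, 162 and 168 CPM in the Arid1a cKO, while its copy Gm10260 went from 22.9, 34.5 and 30.1 CPM to 42.6, 202 and 208 CPM. The low Rps18 values and the high Gm10260 values fell in the same 2 libraries. Rps2 stood at 155 CPM in Arid1a cKO replicate 3 and at 260 to 309 CPM elsewhere, and Rps2-ps10 at 322 CPM there and 126 to 156 CPM elsewhere. Rps3a1 was at 104 CPM in Arid1a cKO replicate 2 and at 228 to 312 CPM elsewhere, where Rps3a3, itself a member, was at 439 CPM against 227 to 294 CPM. In Rpl34 the swing ran the other way: the row was at 111 and 114 CPM in Arid1a cKO replicates 2 and 3 and at 52.2 to 67.6 CPM elsewhere, and Rpl34-ps1 was at 149 and 158 CPM there and 181 to 233 CPM elsewhere. In each of these pairs the row of one partner was low where that of the other was high.

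**Figure D4:**
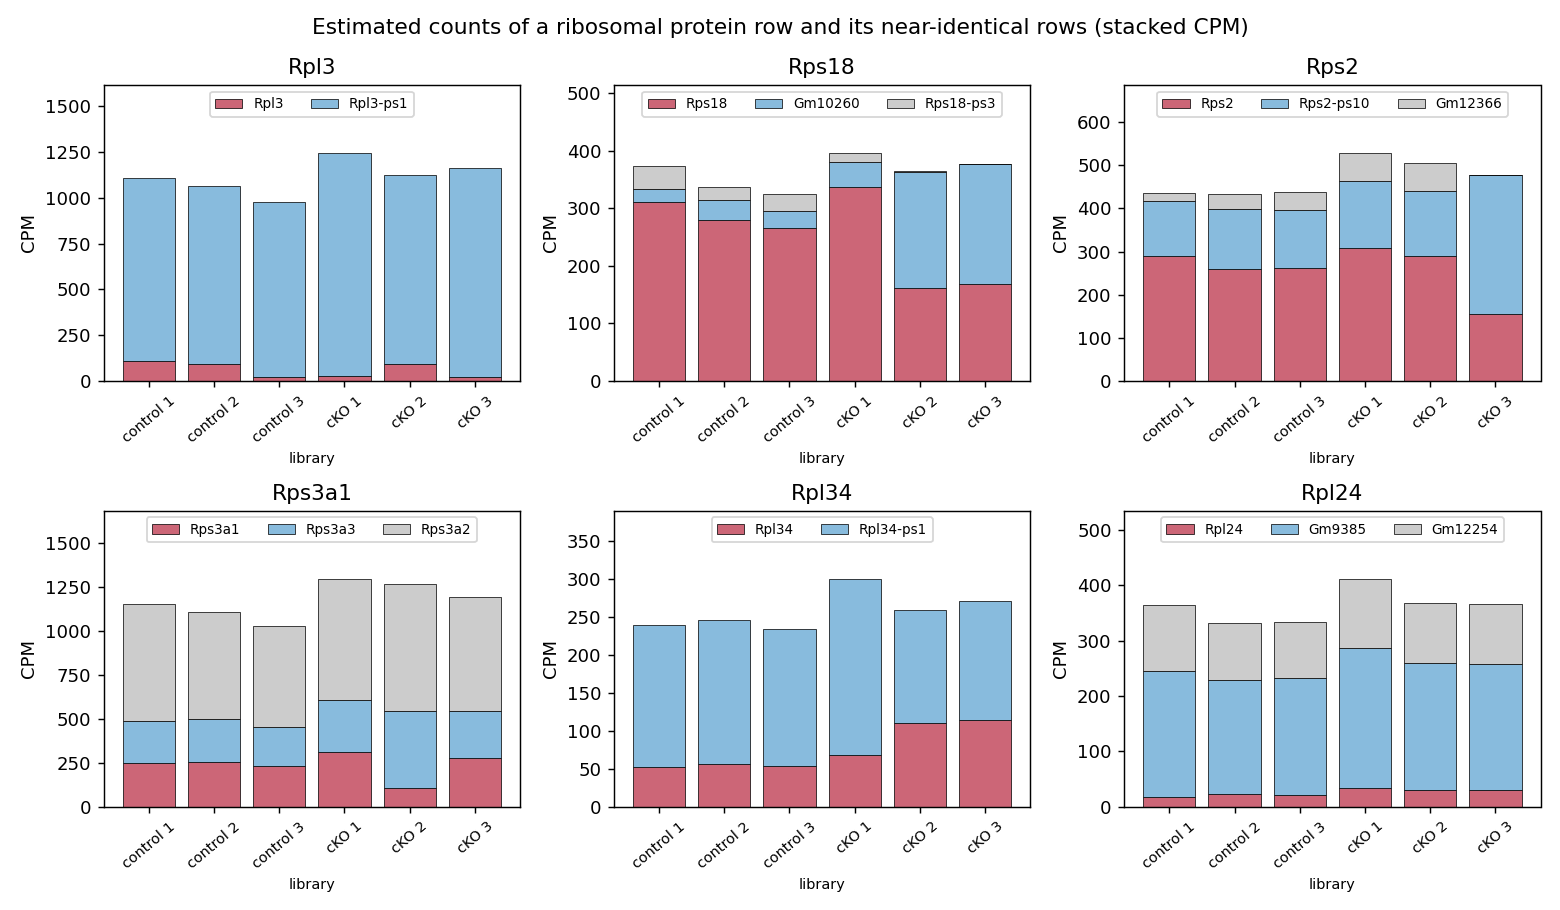
Stacked CPM (vertical axis, from 0) of 6 members and their most abundant near-identical rows in each of the 6 libraries. The height of the whole bar varies less between libraries than the red part that is counted on the member row, as in Rps18, Rps2, Rps3a1 and Rpl34.

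Each member was therefore also summed with its near-identical rows, 530 of the 549, which gave 84 sets of which 83 were tested. In the controls 50 of the 84 sets had less than 50% of their sum on the member row, and 15 had less than 10%. The lowest was Rpl23a, with 1.34, 1.74 and 1.79 CPM on its own row and 838, 795 and 718 CPM in its set, or 0.208%. Rpl17, at 1.31 to 2.44 CPM over the 6 libraries, was similar, with 634 to 772 CPM in its set. Not scaled to length, levels on the member rows alone ran from 1.53 (Rps27) to 1202 CPM (Rpl4) over control means, with 41 of 90 under 100 CPM. Those of the sets ran from 5.32 to 1342 CPM with 5 of 83 under 100 CPM. The 5 lowest sets were Rpl39l, Rps19bp1, Rps4l, Rpl36al and Rpl7l1. Per kilobase of main transcript Rpl23a came highest of the sets, with 1400 CPM per kb in the controls, followed by Rplp1 with 1325 CPM per kb and Rpl31 with 1258 CPM per kb.

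After summing, 1 set rose, that of Rps21, and 0 fell, beside 1.55% of all genes that rose in the same fit. The Rps21 set was at 123, 152 and 146 CPM in the controls and 206, 183 and 186 CPM in the Arid1a cKO (log2 fold change 0.45, SE 0.091, edgeR adjusted p = 0.0395). Just 6.56% of the stretches of Rps21 occur in another gene, and 79.1% of its set lay on its own row. The other 5 calls were lost. The set of Rpl30 had a log2 fold change of 0.16 (edgeR adjusted p = 0.292), that of Rpl24 0.16 (0.292), of Rpl6 with Rpl6l 0.19 (0.259), of Rpl26 0.20 (0.196) and of Rps19 0.32 (0.0620). Rpl11, lower as a row, had a set at 535, 458 and 468 CPM against 571, 533 and 540 CPM (0.17, adjusted p = 0.286).

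The sets were more alike than the rows. Of the 83, 81 had a log2 fold change above 0, beside 50.8% of all genes in the fit of single rows. The 2 below were Rpl31 (-0.06) and Rpl39l (-0.10). The median of the 83 was 0.16 with quartiles 0.14 and 0.22. The spread between quartiles was 0.085, beside 0.16 for the rows and 0.33 for all genes. These spreads were not matched for level: 41 of 90 rows and 5 of 83 sets had control means under 100 CPM. In 53 sets, 63.9%, the Arid1a cKO libraries all lay above the controls, against 13.8% of all genes in that fit, and in 0 sets below. An unadjusted p under 0.05 and a positive value were found in 33 sets, where 10.1% of genes reached it. Arid1a cKO replicate 1 was the highest library in 78 sets. The sets held 4.11, 4.13 and 3.91% of the counts in the controls and 5.09, 4.28 and 4.53% in the Arid1a cKO, 1.14 times as much.

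**Figure D5:**
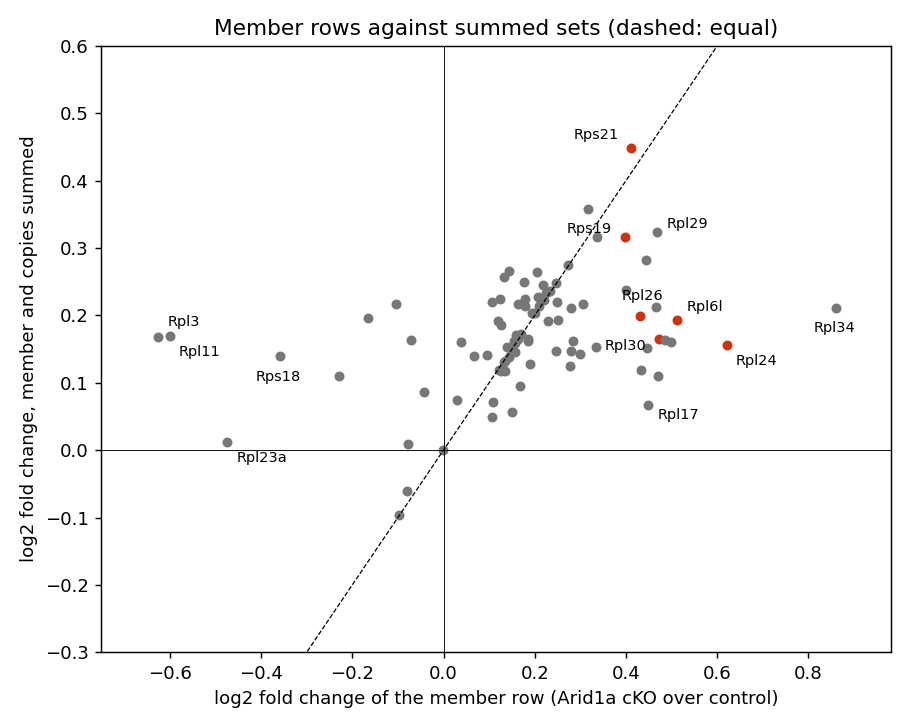
Log2 fold change of each member row (horizontal axis) against that of its set of summed rows (vertical axis), with the dashed line at equal values and red for rows with an adjusted p under 0.05. The rows spread from -0.63 to 0.86 while the sets stay between -0.10 and 0.45, and Rps21 is the red point nearest the line on its upper side.

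In 13 tested members under 10% of the stretches were shared. Rpl4, Rpl8, Rps20, Rps21 and Rps3 were among them. In 1 of the 13, Rps20, less than 50% of the set still lay on its own row (42.4% in the controls). Its main transcript has 3706 bases around 357 coding bases, so its share of stretches says little about its coding part. Of the 13, 1 rose (Rps21) and 11 had a positive log2 fold change, beside 1.5% and 50.8% of all genes tested. The median was 0.15, beside 0.0043 over all genes. Rps19bp1, which is not a ribosomal protein, is counted among the 13. Rps3, a protein at the mRNA entry of the small subunit with no shared stretch, was at 658, 613 and 597 CPM against 763, 681 and 741 CPM (log2 fold change 0.23, edgeR adjusted p = 0.167). The groups were separate. Rpl4, a core large-subunit protein, was at 1293, 1206 and 1107 CPM against 1404, 1248 and 1275 CPM (0.12, adjusted p = 0.499) and overlapped. The 30 members with 10 to 50% of shared stretches had a median of 0.20, and the 47 with 50% or more a median of 0.18.

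The other genes of the translation pathway were counted by list. The shares over all genes tested were 1.5% up, 2.46% down and 50.8% positive, with a median log2 fold change of 0.0043. Among 21 TOP-type genes outside the family 1 rose and 0 fell, with 17 positive values and a median log2 fold change of 0.067. Naca, a chaperone at the ribosome exit, was at 64.8, 72.5 and 66.1 CPM against 91.5, 84.8 and 79.7 CPM (log2 fold change 0.33, edgeR adjusted p = 0.0504), and did not pass. Of 38 initiation factors 0 passed the threshold and 28 were positive (median 0.075). Of 17 elongation and termination factors 0 passed and 11 were positive (median 0.046). Eif3d had the smallest p of the initiation factors (log2 fold change 0.14, edgeR adjusted p = 0.202).

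Of 85 ribosome biogenesis factors 1 rose and 0 fell, with 70 positive values and a median of 0.072. The shares of all genes that rose, fell or were positive were 1.5%, 2.46% and 50.8%. Emg1, a methyltransferase that modifies the RNA of the small subunit, was at 42.6, 41.5 and 44.5 CPM against 57.7, 50.3 and 52.8 CPM (log2 fold change 0.32, edgeR adjusted p = 0.0475). Of 20 genes of the RNA polymerase I machinery, which transcribes ribosomal RNA, 0 passed the threshold and 14 were positive (median 0.080). In the list of 25 growth regulators 0 rose and 1 fell, with 10 positive values and a median of -0.060. Larp4, which binds poly(A) and poly(A)-binding protein, was at 99.9, 98.4 and 103 CPM against 81.4, 79.4 and 87.2 CPM (-0.28, adjusted p = 0.0414). Mycl, a member of the Myc family, was at 18.5, 23.1 and 21.04 CPM against 31.2, 24.4 and 31.2 CPM (0.47, edgeR adjusted p = 0.0783).

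Further measures differed between the genotypes beside the family, and their part in these results was not tested. Over all genes tested 1.5% rose, 2.46% fell and 50.8% had positive values. Of 14 genes of dividing cells 8 rose and 0 fell, among them Cdk1 (log2 fold change 0.69, edgeR adjusted p = 0.0080). The sum of that list was 694 to 754 CPM in the controls and 922 to 1048 CPM in the Arid1a cKO. Of 16 genes of dental epithelium 1 rose, Epcam (log2 fold change 0.47, edgeR adjusted p = 0.0199), and 0 fell. In that list 12 values were positive (median 0.31). Its sums overlapped, with 1332 to 4791 CPM in the controls and 1560 to 3270 CPM in the Arid1a cKO. Of 7 genes of Schwann cells and nerve 0 passed, but all 7 had positive values (median 0.62), and their sum was 122 to 232 CPM in the controls and 251 to 331 CPM in the Arid1a cKO, without overlap. The 15 rows of mitochondrially encoded RNA all had negative values, with a median of -0.30 and 0 calls. The ribosomal RNA row CT010467.1, singled out after its values were seen, took 0.864, 1.01 and 1.05% of the counts in the controls and 1.89, 7.47 and 4.12% in the Arid1a cKO (log2 fold change 2.20, edgeR adjusted p = 0.0667). With the ribosomal RNA rows left out the same number of members rose, 6, and the median was 0.19.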

How the data were processed

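Per the labels' protocols, RNA of the proximal incisor (RIN above 9.0) was read in single-end runs of 75 cycles. The submitters' processing notes name STAR 2.6.1d and Partek with build mm10. For the library kit, strand setting and annotation, the sources used here say nothing, so antisense and overlapping genes cannot be told apart. The authors deposited estimated counts of 25703 genes by an expectation-maximization method, per the name of the table, which splits reads that fit several genes. They also deposited a normalized signal table (21456 genes), used in 2 alternatives.

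Estimated counts were rounded. Genes passing filterByExpr of edgeR 4.0.16 (minimum count 10) numbered 19613. They were tested after TMM with the two-sided quasi-likelihood F test (robust), with Benjamini-Hochberg adjustment over all of them and a threshold of 0.05. SE is the absolute log2 fold change over the square root of F. The common coefficient of variation was 15.8%. R 4.3.3, limma 3.58.1, DESeq2 1.42.0, Python 3.11.15, blastn 2.17.0+ and matplotlib 3.10.9 were used, and the test was tried on simulated data. Results for 2 single genes are not reported here. Symbols matched GENCODE M21 for 97.5% of rows.

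Copies were rows with at least 90% identity over at least 70% of a coding sequence. A copy that is no pseudogene was summed if the match covered at least 40% of its longest transcript. Members, lists and tests were chosen with earlier results of these data known. Named were members past the threshold, the 3 next by p in each of the large subunit, small subunit and stalk, the 3 highest and 3 lowest by mean CPM, the 3 with changes nearest 0, paralogs with their parents, some members by name, and up to 4 genes a list.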

Additional observations from a re-analysis of the deposited data

How the results depend on the processing

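No paired analysis was possible because the labels, which speak of 3 pairs of samples, do not say which samples form a pair, and the titles of the 2 groups share just 1 number. The median log2 fold change of the family stayed within 0.12 to 0.22 in all fits run, and the ratio of summed member shares within 1.10 to 1.21. Its count of calls (main 6) did not stay: it was 3 with library sizes alone, 27 with DESeq2 (26 up, 1 down), 2 and 3 with limma on the normalized table at pseudocounts 1 and 5, and 0 to 6 without 1 library each. After seeing the data 4 alternatives were added: 1 call with copies summed, 12 with a term for high Xist, 2 in the 4 low-Xist libraries, and 6 with ribosomal RNA rows left out. Over all genes (main 777) the counts were 1905 with DESeq2, 474 with limma at pseudocount 1, 1272 with the Xist term, 177 in the low-Xist libraries, and 160 to 532 without 1 library each. In those fits with 1 library of a group left out the others carry the spread. The cause of these shifts was not tested, except that fits with fewer libraries have fewer degrees of freedom.

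Of 13 negative member rows 11 became positive with copies summed, and 0 positive rows became negative. The log2 fold changes became 0.20 (Rpl10), 0.17 (Rpl11), 0.012 (Rpl23a), 0.17 (Rpl3), 0.11 (Rpl36a), 0.00080 (Rps4l), 0.14 (Rps18), 0.22 (Rps2), 0.16 (Rps3a1), 0.087 (Rps13) and 0.0097 (Rps26), since reads on the copies then count. Rps4l, at -0.0018, became 0.0011 with RLE, 0.019 with upper quartile, 0.031 with library sizes, 0.0049 without a filter, 0.014 with 1 CPM required, 0.0011 with DESeq2, 0.0037 with voom, 0.025 and 0.019 with limma at pseudocounts 1 and 5, 0.011 without genes above 1% of a library or without ribosomal RNA rows, 0.19 without control replicate 1, and 0.079 and 0.031 without Arid1a cKO replicates 2 and 3. Rpl39l became 0.15 without control replicate 1 and 0.13 without Arid1a cKO replicate 2. Without Arid1a cKO replicate 1 the values were lowest for Rpl39l (-0.25), Rps4l (-0.11), Rps2 (-0.28) and Rps3a1 (-0.35) and highest for Rpl5 (0.081). Rpl27, highest without control replicate 3 (0.14), became -0.066 without control replicate 2 and -0.026 without Arid1a cKO replicate 1, Rps3a1 0.28 without Arid1a cKO replicate 2, and Rpl5 -0.0082 and Rps2 0.16 without Arid1a cKO replicate 3. Of the other values, for the 41 members followed through all alternatives, 836 kept direction and side of the threshold, 52 lost it and 25 passed it. Depth limits Rpl3l, which had too few counts to be tested.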

Other observations

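The ribosome of mitochondria is built from a separate set of nuclear genes. Of 78 such genes 1 rose and 0 fell, 67 had a positive log2 fold change and the median was 0.11. Over all genes tested 1.5% rose, 2.46% fell and 50.8% were positive. Mrpl17, a protein of its large subunit, was at 34.9, 33.3 and 33.8 CPM in the controls and at 43.4, 40.9 and 39.9 CPM in the Arid1a cKO (0.28, edgeR adjusted p = 0.0490), with no overlap. Of 82 nuclear genes of the respiratory chain 0 rose and 1 fell, 68 were positive and the median was 0.099. The one that fell, Cox4i2, an isoform of cytochrome c oxidase subunit 4 that is known for its response to oxygen, was at 69.1, 59.1 and 62.9 CPM against 41.3, 43.4 and 34.7 CPM (-0.68, edgeR adjusted p = 0.0163).

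The family has short transcripts, and length moved with the log2 fold change outside it. Protein-coding genes that are no members had a median of 0.10 (300 genes) where the exons summed to under 1000 bases, 0.088 (1561 genes) from 1000 bases, 0.047 (4538 genes) from 2000 bases and -0.031 (8282 genes) from 4000 bases. Members by their main transcript had medians of 0.19 (72 members) under 1000 bases, 0.15 (16) from 1000 bases and 0.077 (2) from 2000 bases. Summed exons can be much longer than the main transcript. They came to 2053 bases beside 799 in Rpl10 and to 4685 beside 633 in Rps19, while in Rpl36 both were 383. The bins of members therefore cannot be set beside those of the other genes. The part of length in the family's values was not tested. Of 20 tested host genes of small nucleolar RNAs 0 passed the threshold, beside 3.96% of all genes. Of the 20, 14 were positive, beside 50.8% of all genes, with a median of 0.046.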
